A study of Homo sapiens with 12 samples.

Results

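The NRF2 pathway was followed through 9 genes of the RNA-seq table, chosen by name out of 26475 gene symbols and read in all 4 groups. They are NFE2L2, which encodes the transcription factor NRF2, KEAP1, which encodes its inhibitor, and the target genes NQO1, HMOX1, GCLC, GCLM, TXNRD1, SRXN1 and OSGIN1. The rule names the genes and uses no measured value itself, but the genes were chosen with earlier results of these data known. Shares of the 9 genes called are therefore descriptions set beside all genes, not independent evidence. All 9 passed the filter on low counts in every comparison. In unstressed cells, KEAP1 holds NRF2 in the cytoplasm and hands it to a CUL3 ubiquitin ligase, so that NRF2 protein is degraded. Oxidants and electrophiles modify cysteines of KEAP1, NRF2 accumulates in the nucleus, pairs with a small MAF protein and binds antioxidant response elements near genes for glutathione synthesis, thioredoxin recycling, quinone reduction and heme breakdown. Because NRF2 is controlled mainly as a protein, the mRNA of NFE2L2 and the mRNAs of its targets are separate readouts, and neither NRF2 protein nor its location was measured in these libraries.

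The cells were PA-1, a human ovarian teratocarcinoma line, and SK-OV-3, a human ovarian adenocarcinoma line. Each line received either BAY-850, a small molecule inhibitor of the ATAD2 bromodomain, at 5 µM for 48 h or the vehicle DMSO, and 3 biological replicates were sequenced in each of the 4 groups (12 libraries). Each tumor type is represented by a single established line, and PA-1 was grown in DMEM and SK-OV-3 in RPMI, so line and growth medium cannot be told apart. The submitters described ribosomal RNA depletion in the design text and poly-A selection in the paper's methods. Library totals were 34544505 to 51840233 expected counts, and ribosomal RNA genes took 7.94% to 16.9% of them. The library SK-OV-3 BAY-850 replicate 3 had the highest total but only 15629 genes with a count, against 17425 to 18414 in the other 11. Of the markers of each line, LIN28A (756 CPM), POU5F1 (409 CPM) and SOX2 (224 CPM) were high in PA-1 with DMSO, while L1TD1 and TDGF1 were below 0.5 CPM there. In SK-OV-3 with DMSO, ERBB2 (2416 CPM), KRT7 (440 CPM) and PAX8 (223 CPM) were high, while MUC16 and WFDC2 were below 1 CPM. The epithelial keratins KRT8 and KRT18 were high in both lines, at 532 and 335 CPM in PA-1 against 599 and 266 CPM in SK-OV-3. In RNA from whole cultures, fewer cells of a type and less RNA per cell cannot be told apart.

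NRF2 with a small MAF protein recognises the core TGACNNNGC, and this core was searched on both strands of the promoter windows listed by RefSeq for GRCh38.p14, which run from 250 bases before to 50 bases after a gene's start. It was found in 4 of 11 windows of the 9 genes, which belong to 3 of the 8 genes with a window, against 13.3% of 35116 windows of all genes. HMOX1 has no promoter window in the list used here. The 6 matches are shown because they lie in KEAP1, GCLM and TXNRD1, genes with 3 different outcomes in SK-OV-3. Each is printed 5′ to 3′ on the strand of the core, with the core in capitals.
GCLM, chr1:93909456-93909464: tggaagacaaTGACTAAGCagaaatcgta
KEAP1, chr19:10502794-10502802: caggtcaccaTGACTAAGCagagccgggc
KEAP1, chr19:10502817-10502825: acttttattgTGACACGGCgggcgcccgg
TXNRD1, chr12:104215680-104215688: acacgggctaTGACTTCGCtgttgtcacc
TXNRD1, chr12:104215771-104215779: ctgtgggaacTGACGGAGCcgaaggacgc
TXNRD1, chr12:104286930-104286938: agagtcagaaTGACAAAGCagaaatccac
GCLM and KEAP1 share 1 core, TGACTAAGC, read from the strand opposite to the gene in both. None of the 6 overlaps the related AP-1 core TGANTCA, which was present in 7.71% of all windows and, among the 9 genes, in OSGIN1 alone. The windows of NFE2L2, NQO1, GCLC, SRXN1 and OSGIN1 do not contain these letters of the NRF2 core. Sequence outside the windows was not searched, so an element further from the start would be missed. A match of letters is a description of the window, since binding was not measured.

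BAY-850 changed some of the pathway's mRNAs in different ways in the 2 lines. The difference in response between the lines passed its test for 4 of the 9 genes (44.4%, against 14.5% of all genes). Within SK-OV-3, 6 of the 9 genes passed the test of BAY-850 against DMSO. NFE2L2 and TXNRD1 were higher, and KEAP1, NQO1, HMOX1 and GCLC were lower. In PA-1 the only gene to pass was NFE2L2, and it was lower, a call that was lost in some fits that left out a library. Genes were called at an adjusted p under 0.05 in edgeR's quasi-likelihood test, with the adjustment over all genes tested. The share of all tested genes called was 20.4% in SK-OV-3 (10.8% higher and 9.56% lower, of 15348) and 7.13% in PA-1 (4.65% higher and 2.48% lower, of 15212). The share called among the 9 genes was 66.7% in SK-OV-3 and, as 1 gene of 9, 11.1% in PA-1. Every change was modest: none of the 9 genes moved by 1.5-fold with an adjusted p under 0.05, a limit passed by 5.80% of all genes in SK-OV-3 and 1.05% in PA-1. The median log2 fold change of the 9 genes was -0.11 in SK-OV-3 and -0.08 in PA-1, against -0.01 and -0.0019 over all genes tested. With BAY-850 and DMSO side by side, the groups did not overlap for 7 of the 9 genes in SK-OV-3 (38.6% of all genes) and for 3 in PA-1 (27.5% of all genes). Levels of the line markers also differed with treatment in SK-OV-3: from DMSO to BAY-850 the means went from 38.1 to 19.1 CPM for EPCAM, 526 to 328 for KRT19, 599 to 416 for KRT8, 2416 to 1782 for ERBB2, 223 to 324 for PAX8 and 31.5 to 70.6 for DNMT3B, which is listed as a stem cell marker. The groups did not overlap for any of these 6 genes, and of the 10 epithelial markers 6 were lower and 1 higher without overlap, while LIN28A, LIN28B, SOX2, L1TD1 and TDGF1 stayed below 1 CPM in every SK-OV-3 library, as did the blood cell markers PTPRC and CD3E. In PA-1, KRT8 (532 to 580 CPM), KRT18 (335 to 352), KRT19 (15.7 to 20.95) and ERBB2 (61.3 to 70.0) were higher with BAY-850 without overlap. These markers were lower with BAY-850 in SK-OV-3. PECAM1, listed with PTPRC and CD3E among the blood and vessel markers, was detected in both lines. After BAY-850 its mean was lower in SK-OV-3 (3.17 to 2.65 CPM) and higher in PA-1 (23.6 to 25.4 CPM), each without overlap. The other epithelial markers and the stem cell markers overlapped in PA-1. The part of these shifts in the values of the 9 genes was not tested.

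**Figure D1:**
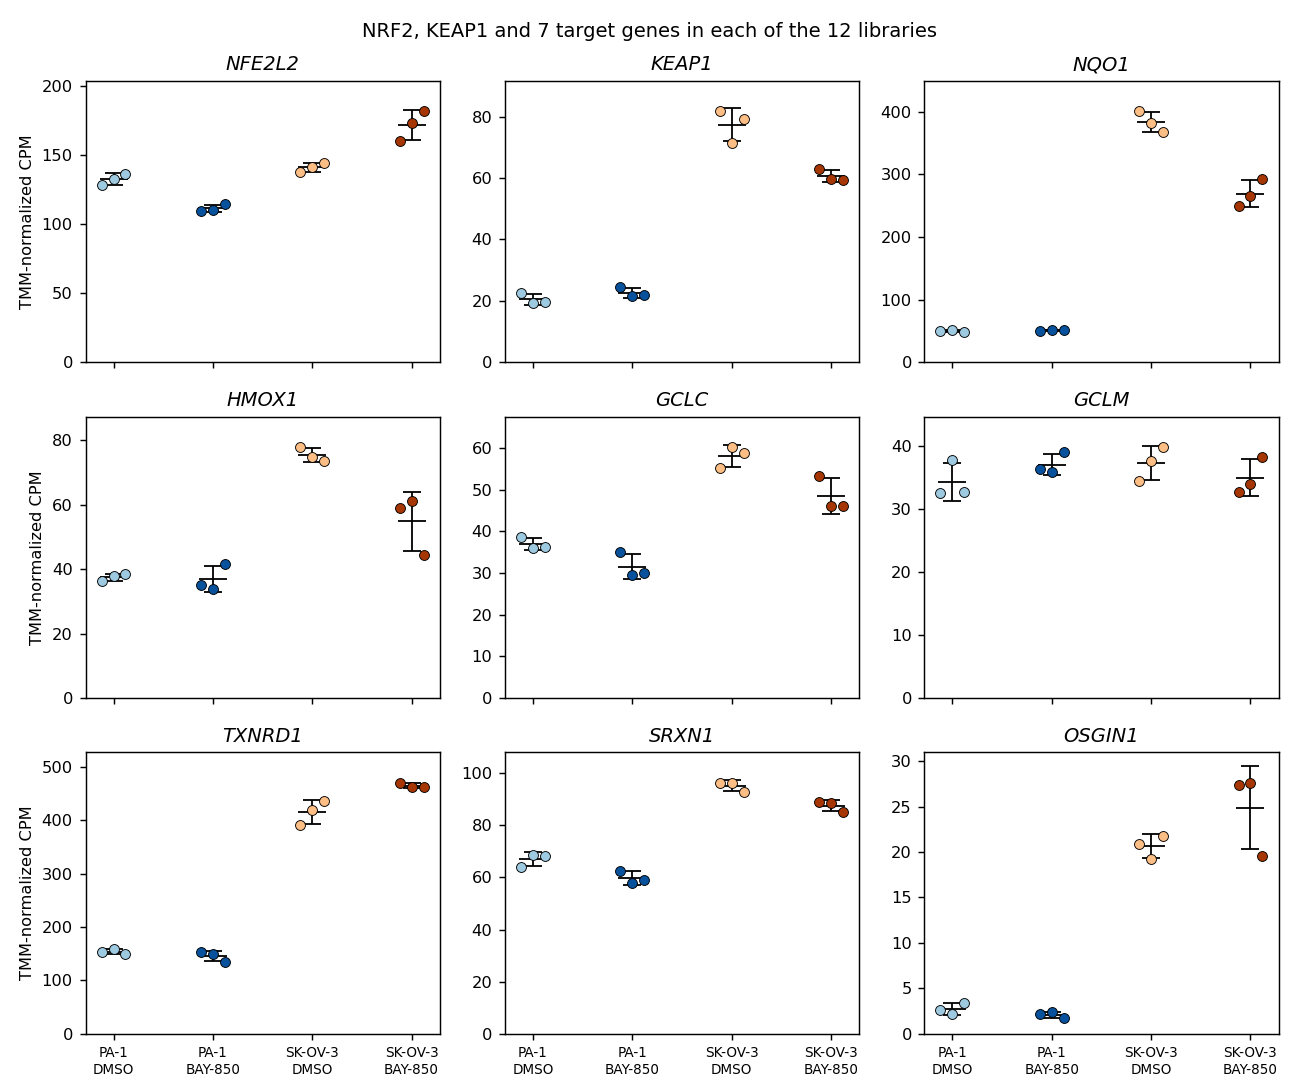
TMM-normalized CPM (vertical axes, linear from 0) of the 9 genes in each of the 12 libraries, with 1 panel per gene, points for libraries, and the mean with its SD over 3 libraries as horizontal mark and bars. NFE2L2 moves down in PA-1 and up in SK-OV-3, while NQO1 stays at 49.2 to 52.4 CPM in PA-1 and falls from 368 to 401 down to 250 to 292 CPM in SK-OV-3.

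NFE2L2 (chr2:177227595-177392697, minus strand; coordinates here and below are from GENCODE 29 on GRCh38, the assembly also called hg38) moved in opposite directions in the lines. In PA-1 its level was 129, 133 and 137 CPM with DMSO and 110, 111 and 115 CPM with BAY-850. All 3 treated libraries lay below all 3 controls, and the log2 fold change was -0.25 (SE 0.0558, adjusted p = 0.0162). In SK-OV-3 its level was 138, 142 and 145 CPM with DMSO and 161, 173 and 182 CPM with BAY-850. Here every treated library lay above every control, with a log2 fold change of 0.30 (SE 0.0616, adjusted p = 0.00586). The difference between the lines, tested as the interaction of line and treatment in a fit of all 12 libraries, was 0.53 on the log2 scale (SE 0.0758, adjusted p = 2.72e-04). The SK-OV-3 call and the interaction passed in every alternative run, but the PA-1 call was lost without DMSO replicate 2 (adjusted p = 0.0771), without BAY-850 replicate 1 (0.0536) or without BAY-850 replicate 2 (0.0955).

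KEAP1 (chr19:10486120-10503741, minus strand), the substrate adaptor that targets NRF2 for degradation, fell in SK-OV-3. The 3 DMSO libraries had 81.7, 71.4 and 79.1 CPM, and the 3 BAY-850 libraries had 62.8, 59.6 and 59.3 CPM. The groups did not overlap, and the level was 1.27-fold lower (log2 fold change -0.34, SE 0.0672, adjusted p = 0.00435). In PA-1 it was 22.6, 19.4 and 19.6 CPM with DMSO and 24.6, 21.6 and 21.9 CPM with BAY-850, which overlap (log2 fold change 0.15, SE 0.0903, adjusted p = 0.347). The response differed between the lines by -0.50 on the log2 scale (SE 0.111, adjusted p = 0.00717). NFE2L2 mRNA thus rose and KEAP1 mRNA fell in SK-OV-3 in the same libraries.

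NQO1 (chr16:69706996-69726951, minus strand) encodes the quinone reductase, a widely used readout of NRF2 activity. In SK-OV-3 it had 401, 382 and 368 CPM with DMSO and 250, 265 and 292 CPM with BAY-850. The highest treated library was well below the lowest control, and the 1.41-fold fall was the largest among the 9 genes in SK-OV-3 (log2 fold change -0.50, SE 0.0683, adjusted p = 4.17e-04). In PA-1 the level was 49.4, 51.0 and 49.2 CPM with DMSO and 50.7, 51.1 and 52.4 CPM with BAY-850. These values overlap, with a log2 fold change of 0.046 (SE 0.0595, adjusted p = 0.696). The interaction was -0.56 (SE 0.0827, adjusted p = 3.99e-04).

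HMOX1 (chr22:35380361-35394214, plus strand), the heme oxygenase that degrades heme to biliverdin, iron and carbon monoxide, also fell in SK-OV-3. Its level was 78.0, 74.9 and 73.5 CPM with DMSO and 58.9, 61.3 and 44.4 CPM with BAY-850. The treated libraries were all lower, and replicate 3, the library with the fewest genes detected, was the lowest of them. The log2 fold change was -0.45 (SE 0.0980, adjusted p = 0.00754) and, without that library, -0.33 (adjusted p = 0.00220). In PA-1 the 6 libraries overlapped, at 36.2, 37.8 and 38.4 CPM with DMSO and 35.1, 33.9 and 41.5 CPM with BAY-850 (log2 fold change -0.022, SE 0.0802, adjusted p = 0.904). The interaction was -0.44 (SE 0.147, adjusted p = 0.0587) and ranged from an adjusted p of 0.0221 to 0.139 over the alternatives, passing without SK-OV-3 BAY-850 replicate 1 (0.0438) or replicate 2 (0.0285) and in DESeq2 (0.0221), among others.

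GCLC and GCLM encode the catalytic and the modifier subunit of glutamate-cysteine ligase, the rate-limiting enzyme of glutathione synthesis. GCLC (chr6:53497341-53616970, minus strand) had 55.2, 60.3 and 58.7 CPM with DMSO and 53.4, 46.0 and 46.1 CPM with BAY-850 in SK-OV-3. The groups did not overlap, though the highest treated library lay close to the lowest control, and the log2 fold change was -0.25 (SE 0.0752, adjusted p = 0.0388). This call was lost when scaling by library size only (adjusted p = 0.0808) and without DMSO replicate 2 (0.165), DMSO replicate 3 (0.124), BAY-850 replicate 2 (0.149) or BAY-850 replicate 3 (0.0530). In PA-1, GCLC had 38.55, 35.99 and 36.24 CPM with DMSO and 35.1, 29.5 and 30.1 CPM with BAY-850, without overlap. That difference did not pass (log2 fold change -0.22, SE 0.0775, adjusted p = 0.0951), except without BAY-850 replicate 1 (-0.31, adjusted p = 0.0443). The fold changes of GCLC in the lines were nearly the same size, and their difference was -0.035 on the log2 scale (SE 0.115, adjusted p = 0.898).

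GCLM (chr1:93885205-93909456, minus strand) was the most even of the 9 genes across the study. Its level was 32.4, 37.7 and 32.7 CPM in PA-1 with DMSO, and 36.3, 35.8 and 39.0 CPM with BAY-850. In SK-OV-3 it was 34.4, 37.6 and 39.8 CPM with DMSO, and 32.7, 33.9 and 38.2 CPM with BAY-850. All 4 groups overlapped, and neither response passed the test (log2 fold change 0.11, SE 0.0764, adjusted p = 0.416 in PA-1, and -0.077, SE 0.0907, adjusted p = 0.603 in SK-OV-3). Its promoter window carries the same core as that of KEAP1, which fell in SK-OV-3.

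TXNRD1 and SRXN1 belong to the repair of oxidised proteins: TXNRD1 is the cytosolic thioredoxin reductase, and SRXN1 is the sulfiredoxin that restores overoxidised peroxiredoxins. TXNRD1 (chr12:104215779-104350305, plus strand) had 392, 420 and 436 CPM with DMSO and 471, 462 and 463 CPM with BAY-850 in SK-OV-3. Every treated library was above every control, and the log2 fold change was 0.18 (SE 0.0493, adjusted p = 0.0267). It was the only target gene of the 7 to rise in that test, and the call was lost when scaling by library size only (adjusted p = 0.0954) and without DMSO replicate 2 (0.0877), BAY-850 replicate 1 (0.0851) or BAY-850 replicate 2 (0.0665). In PA-1 it was 154, 159 and 150 CPM with DMSO and 153, 150 and 135 CPM with BAY-850, which overlap (log2 fold change -0.077, SE 0.0598, adjusted p = 0.477). The interaction of 0.24 (SE 0.0775) lay at the edge of the threshold, with an adjusted p of 0.0494 that ranged from 0.00688 to 0.121 over the alternatives. Of the 12 fits that each left out a library, it missed the threshold in 10 and passed without PA-1 BAY-850 replicate 1 or SK-OV-3 DMSO replicate 3.

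In PA-1, SRXN1 (chr20:646615-653370, minus strand) was at 63.9, 68.6 and 68.4 CPM with DMSO and at 62.6, 57.7 and 58.8 CPM after BAY-850. In SK-OV-3 it had 96.3, 96.4 and 92.8 CPM with DMSO and 89.1, 88.4 and 85.1 CPM with BAY-850. The treated libraries lay below the controls in both lines, but neither difference passed over all genes (log2 fold change -0.16, SE 0.0618, adjusted p = 0.121 in PA-1, and -0.11, SE 0.0539, adjusted p = 0.192 in SK-OV-3).

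OSGIN1 (chr16:83948282-83966332, plus strand), which encodes a growth inhibitor induced by oxidative stress, had the lowest levels and the largest errors. In PA-1, where its counts were as low as 64, the libraries held 2.60, 2.13 and 3.42 CPM with DMSO and 2.21, 2.34 and 1.68 CPM after BAY-850. The groups overlapped, and the log2 fold change was -0.38 with an SE of 0.254 (adjusted p = 0.394). In SK-OV-3 it had 20.9, 19.2 and 21.8 CPM with DMSO and 27.4, 27.6 and 19.6 CPM with BAY-850. Replicates 1 and 2 of the treated group were above all controls, while replicate 3 was among them, and the log2 fold change was 0.28 (SE 0.124, adjusted p = 0.141). Without that library it was 0.42 with an adjusted p of 0.00446, and the interaction rose from 0.65 (adjusted p = 0.117) to 0.79 (adjusted p = 0.0312), so this library decided both values. Its part in the result was not tested beyond leaving it out.

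**Figure D2:**
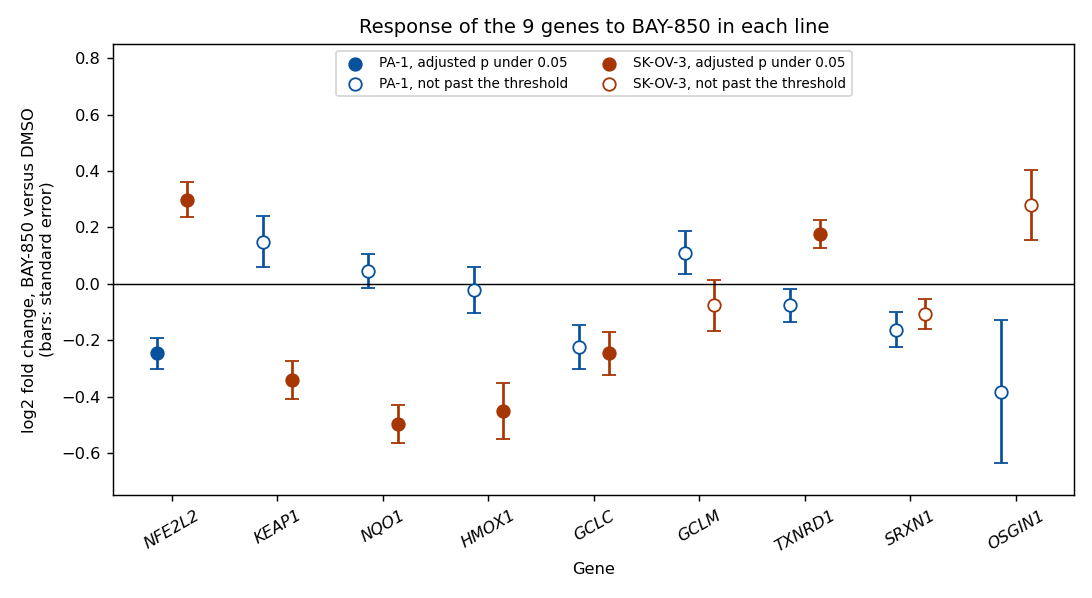
Log2 fold change of BAY-850 against DMSO (vertical axis) for the 9 genes in PA-1 (blue) and SK-OV-3 (brown), with bars for the standard error and filled points for an adjusted p under 0.05. In SK-OV-3 4 filled points lie below 0 and 2 above, while in PA-1 the single filled point is NFE2L2, below 0.

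Across the 9 genes, 4 passed the test of the interaction, NFE2L2 and TXNRD1 with a higher response in SK-OV-3 and KEAP1 and NQO1 with a lower one. The background share of the interaction was 14.5% of 16830 genes (6.70% higher and 7.77% lower), and the 4 of 9 are 44.4%. Of the 74 other pathway genes tested, 22 passed (29.7%), 9 with a higher and 13 with a lower response in SK-OV-3. The median interaction was -0.035 over the 9 genes and -0.02 over all genes tested.

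The other genes of the pathway were counted from a list of 75 genes in 7 roles, also chosen with earlier results known, so its shares are descriptions too. In SK-OV-3, 34 of the 74 tested passed, 14 higher and 20 lower (45.9%, against 20.4% of all genes), with a median log2 fold change of -0.072. In PA-1, 4 of the 70 tested passed, all higher (5.71%), a share below the 7.13% of all genes and so no result about the list. Among them were NFE2L1, a relative of NRF2 (0.22, SE 0.0622, adjusted p = 0.0462), ABCB6, a porphyrin transporter (0.47, SE 0.0648, adjusted p = 4.67e-04), and ABCC1, an exporter of glutathione conjugates (0.31, SE 0.0751, adjusted p = 0.0225). The median in PA-1 was -0.034. The PA-1 count was unsteady, at 6 in DESeq2 (5 higher and 1 lower), 1 to 2 under 5 other settings, of which the fit of all 12 libraries had 1 higher and 1 lower, and 1 to 5 when a library was left out, with 5 (4 higher and 1 lower) without BAY-850 replicate 3, 1 without DMSO replicate 1, without DMSO replicate 2 or without BAY-850 replicate 2, and 2 without BAY-850 replicate 1.

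Among the 10 regulators, 6 rose in SK-OV-3 and none fell, where 10.8% of all genes rose and 9.56% fell. The mRNAs of the small MAF proteins, the partners of NRF2 on DNA, rose together. MAFF went from 63.1 ± 0.185 to 84.99 ± 7.15 CPM (SD, n = 3, adjusted p = 7.16e-04), MAFG from 129 ± 2.69 to 161 ± 14.6 CPM (adjusted p = 0.00348) and MAFK from 47.4 ± 2.08 to 65.5 ± 9.20 CPM (adjusted p = 0.00334). SQSTM1, the p62 autophagy receptor that can draw KEAP1 into autophagosomes, rose from 595 ± 17.6 to 958 ± 28.3 CPM (log2 fold change 0.70, SE 0.0434, adjusted p = 1.13e-06). The NRF2 relatives NFE2L1 (0.18, adjusted p = 0.0274) and NFE2L3 (0.48, adjusted p = 0.0198) also rose. The repressor BACH1, which competes for the same DNA elements, had a log2 fold change of 0.23 (adjusted p = 0.0843), and CUL3 (0.081, adjusted p = 0.354) and RBX1 (-0.057, adjusted p = 0.572), which form the ligase with KEAP1, did not pass.

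Against the same background, of 17 detoxification genes 8 fell and 1 rose in SK-OV-3, and of 6 NADPH genes 3 fell and none rose. The 8 include near-identical aldo-keto reductase genes that share reads, so they are not 8 independent falls. ALDH3A1, an aldehyde dehydrogenase, fell from 93.7 ± 3.61 to 38.6 ± 4.25 CPM (log2 fold change -1.26, SE 0.0872, adjusted p = 2.51e-06). The aldo-keto reductases AKR1C1 (255 ± 9.73 to 159 ± 5.47 CPM) and AKR1C2 (92.0 ± 6.21 to 52.0 ± 1.63 CPM) fell too, by log2 fold changes of -0.67 and -0.81, but near-identical copies share reads and the division between them is uncertain. The interaction did not pass for ALDH3A1 (-0.61, adjusted p = 0.369), AKR1C1 (-0.32, adjusted p = 0.261) or AKR1C2 (-0.083, adjusted p = 0.824). With DMSO in PA-1 these genes had only 0.606, 2.50 and 2.13 CPM. AKR1C2 was lower there with BAY-850 without overlap (-0.75, adjusted p = 0.116). AKR1B1, another aldo-keto reductase, rose from 212 ± 11.04 to 342 ± 7.48 CPM (0.70, SE 0.0517, adjusted p = 4.08e-06).

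The thioredoxin group had 1 gene higher and 4 lower of 10 in SK-OV-3 (50%, against 20.4% of all genes in either direction). TXNRD2, the mitochondrial thioredoxin reductase, fell from 28.9 ± 1.94 to 19.5 ± 0.549 CPM (-0.56, SE 0.0890, adjusted p = 0.00121), in contrast to the cytosolic TXNRD1. PRDX1, a peroxiredoxin, fell from 721 ± 34.4 to 570 ± 5.47 CPM (adjusted p = 6.35e-04). Of 19 glutathione genes tested, 1 rose and 3 fell. That share, 21.1%, is near the 20.4% of all genes and so no result about this group. SLC7A11, the cystine importer, was among the genes that fell (245 ± 20.5 to 206 ± 3.26 CPM, adjusted p = 0.0224). In PA-1, SLC7A11 was also lower without overlap (-0.17, adjusted p = 0.0803), and its interaction did not pass (-0.073, adjusted p = 0.625). In the heme and iron group 3 rose and 1 fell of 8, with FTH1, the ferritin heavy chain, at 9898 ± 714 CPM before and 13730 ± 325 CPM after treatment (0.49, SE 0.0495, adjusted p = 5.15e-05), though it has many processed copies in the genome. Of 4 superoxide and peroxide genes 2 rose and 1 fell (75%, as 3 genes of 4). SOD2, the mitochondrial superoxide dismutase, made the largest move among the listed genes that passed, from 70.2 ± 4.66 to 211 ± 8.59 CPM (1.60, SE 0.0596, adjusted p = 2.68e-08).

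**Figure D3:**
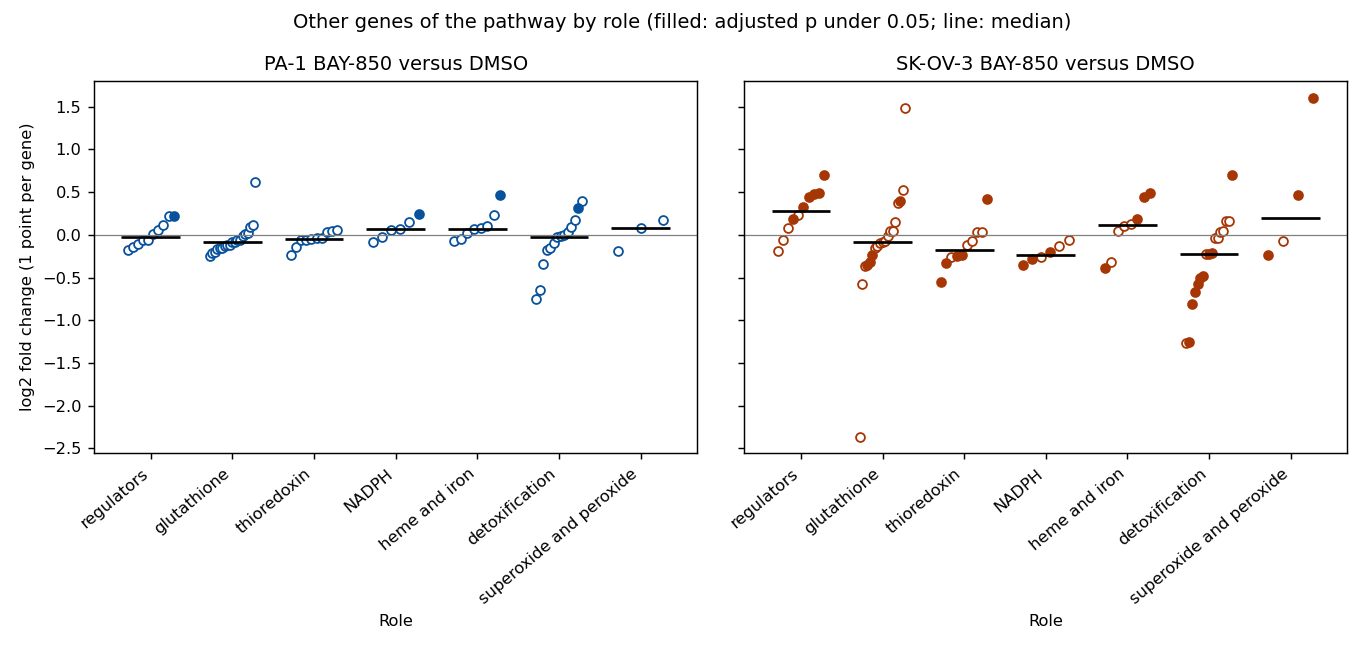
Log2 fold change of BAY-850 against DMSO (vertical axis) for the tested genes of the 75-gene pathway list by role, in PA-1 (left) and SK-OV-3 (right), with 1 point per gene, filled at an adjusted p under 0.05, and a line for the median. In SK-OV-3 the filled regulators all lie above 0 and the filled detoxification genes lie below it except AKR1B1, while PA-1 has 4 filled points.

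With DMSO alone, 7 of the 9 genes were higher in SK-OV-3 than in PA-1 and none was lower, but most genes differ between these lines. In either direction 80.3% of 16070 genes passed, so the 77.8% of the 9 genes called is near the background and is not a result about them. By direction, 40.1% of all genes were higher and 40.2% lower, while all 7 called genes were higher. The groups did not overlap for 8 of the 9 genes (82.3% of all genes). The median log2 difference was 1.01 over the 9 genes and 0.0019 over all genes. NQO1 was 7.68-fold higher in SK-OV-3 (log2 difference 2.94, SE 0.0578, adjusted p = 1.63e-13) and OSGIN1 7.61-fold higher (2.93, SE 0.167, adjusted p = 3.81e-09). KEAP1 was 3.77-fold, TXNRD1 2.69-fold, HMOX1 2.01-fold, GCLC 1.57-fold and SRXN1 1.42-fold higher. NFE2L2 itself did not pass (0.087, SE 0.0527, adjusted p = 0.145), although its 3 SK-OV-3 libraries lay above its 3 PA-1 libraries, nor did GCLM (0.12, SE 0.0845, adjusted p = 0.226) except when each library's trend on GC content was removed (0.29, adjusted p = 0.00194). The DMSO libraries enter both this comparison and the responses to BAY-850, so the patterns are not independent.

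Per kilobase of exon, which allows genes to be compared only roughly, the order of the means with DMSO differed between the lines. Lengths were exon unions of annotated transcripts, not lengths of the transcripts expressed in these cells. In PA-1, TXNRD1 (30.5 CPM per kb) and NFE2L2 (29.3) were highest, followed by SRXN1 (24.8), HMOX1 (20.6), NQO1 (15.95), GCLM (6.99), KEAP1 (6.50), GCLC (5.79) and OSGIN1 (0.999). In SK-OV-3, NQO1 (123) was highest, followed by TXNRD1 (82.4), HMOX1 (41.4), SRXN1 (35.3), NFE2L2 (31.2), KEAP1 (24.5), GCLC (9.11), GCLM (7.60) and OSGIN1 (7.58). NQO1 was below 4 of the other genes in PA-1 and above all of them in SK-OV-3. Neighbours whose libraries overlapped were TXNRD1 with NFE2L2 and GCLM with KEAP1 in PA-1, and GCLM with OSGIN1 in SK-OV-3.

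**Figure D4:**
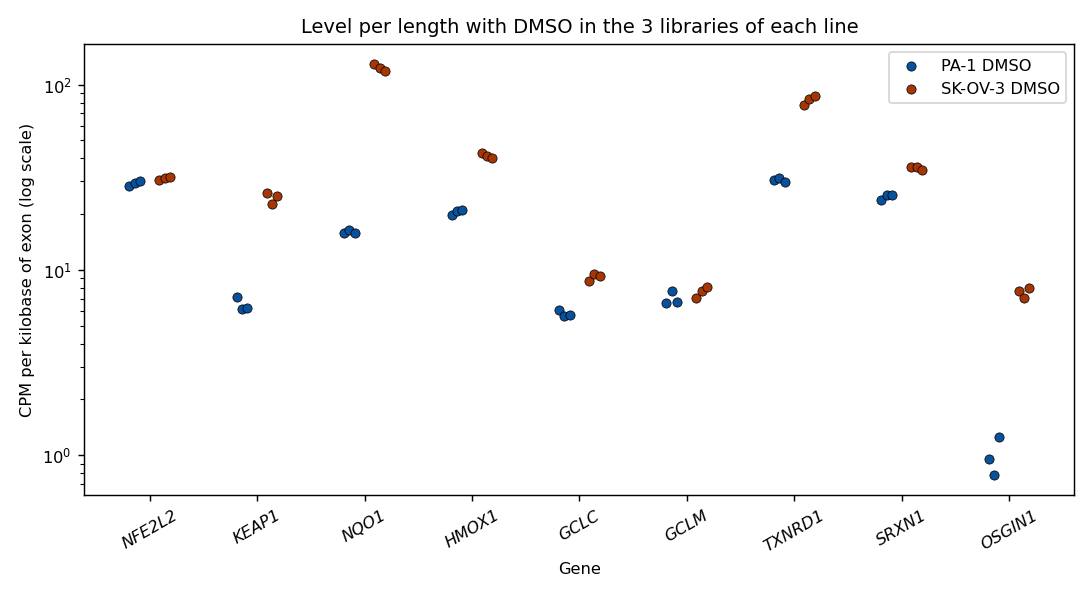
CPM per kilobase of exon (vertical axis, log scale) of the 9 genes in the 3 DMSO libraries of PA-1 (blue) and SK-OV-3 (brown). The points of the lines lie apart for NQO1 and OSGIN1 and meet for GCLM.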

How the data were processed

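RNA was measured in 12 libraries. The authors deposited the expected counts of RSEM for each gene symbol, unnormalized, and the submitters' processing notes name Bowtie2 2.1.0, RSEM 1.2.15 and hg38; the annotation is not given in the sources used here. RSEM splits reads that map to more than 1 gene, yet all 108 values of the 9 genes were whole numbers. Expected counts were rounded, filtered by group, scaled with TMM and compared with the quasi-likelihood test of edgeR 4.0.16 in R 4.3.3, with Benjamini-Hochberg adjustment over all genes tested. The standard error was the log2 fold change divided by the square root of F. CPM are TMM-normalized over the 12 libraries, and lengths are exon unions of GENCODE 29 basic transcripts. The methods were tested on simulated counts. P-values measure the spread between replicates, within 1 line for each response and over both lines for the interaction and the DMSO comparison. They do not measure the spread between lines of a tumor type. CPM of genes with few counts are imprecise. The 9 genes and the pathway list, with its naming rule, were chosen with earlier results of these data known. The rule named regulators, called genes of at least 1.5-fold with BAY-850, and called genes with the largest differences between the lines with DMSO. Other genes named as examples were chosen after their values were seen. Alternatives were DESeq2 1.42.0, limma-voom 3.58.1, other scalings and filters, a GC correction, a replicate block, a common fit and leaving out each library. NFE2L2 overlaps AGPS, and TXNRD1 overlaps EID3 on its own strand. Genes of the pathway list that are not named enter the counts only, and the values of 1 of them are not reported here.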

Additional observations from a re-analysis of the deposited data

Results flagged for a closer look

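The response to BAY-850 differed between SK-OV-3 and PA-1 by the interaction term for 14 genes named in the text, given as the log2 fold change in SK-OV-3 minus that in PA-1 with the adjusted p over all 16830 genes. Of the 9 NRF2 genes, these were NFE2L2 (0.53, adjusted p = 2.72e-04), KEAP1 (-0.50, adjusted p = 0.00717), NQO1 (-0.56, adjusted p = 3.99e-04) and TXNRD1 (0.24, adjusted p = 0.0494). Of the regulators, these were NFE2L3 (0.53, adjusted p = 0.0230), MAFF (0.49, adjusted p = 0.00135), MAFG (0.26, adjusted p = 0.0499) and SQSTM1 (0.57, adjusted p = 8.95e-05). AKR1B1 (0.69, adjusted p = 5.45e-05), FTH1 (0.37, adjusted p = 0.0203) and SOD2 (1.42, adjusted p = 6.73e-06) also had a higher response in SK-OV-3, while TXNRD2 (-0.61, adjusted p = 0.00300), PRDX1 (-0.29, adjusted p = 0.0123) and ABCB6 (-0.80, adjusted p = 2.69e-04) had a lower one. In all, 22 of the 74 other pathway genes tested passed, 9 higher and 13 lower (29.7%, against 14.5% of all genes). TXNRD1 and MAFG lie at the edge of the threshold.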

How the results depend on the processing

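In SK-OV-3 the calls of NFE2L2, KEAP1, NQO1 and HMOX1 were kept in every alternative run, as were the interactions of NFE2L2, KEAP1 and NQO1 and the 7 differences between the lines. The number of the 9 genes called stayed at 4 to 6 in SK-OV-3, 3 to 5 for the interaction and 7 to 8 between the lines, but was 0 to 1 in PA-1 when a library was left out. The count of other pathway genes in PA-1 was 4, and 1 when scaling by library size only, 2 by library size without ribosomal RNA genes, 1 with the GC trend removed, 1 with the GC trend removed and the replicate block, 2 with all 12 libraries in one fit, and 1 to 5 without a library. Directions reversed only among values near 0 that never passed: HMOX1 in PA-1 (-0.022) was -0.12 to 0.036 without a library, with 0.011 without BAY-850 replicate 1, and the GCLC interaction (-0.035) was 0.0086 by library size and -0.096 to 0.048 without a library, 0.0024, 0.015 and 4e-04 among them. Over all genes in PA-1, 707 were higher and 378 lower, 235 and 231 when scaling by library size only, and 544 and 505 by library size without ribosomal RNA genes. The sample labels number the replicates and name no pairing. Same-numbered replicates did not deviate together (correlations -0.0319 to 0.044), which cannot show how the cultures were set up. With the replicate block, 1, 5, 4 and 7 of the 9 genes passed in PA-1, in SK-OV-3, in the interaction and between the lines. The GCLC call in SK-OV-3 was lost with it (adjusted p = 0.0700). The cause of these shifts was not tested.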

Other observations

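Several genes of the antioxidant list were nearly silent in 1 of the lines with DMSO. The genes given here are the called ones with the largest differences and a mean of at least 1 CPM, so wide contrasts follow from that choice. Between the lines, 80.3% of all genes passed, and the share of all genes nearly silent in 1 line was not counted. CBR1, a carbonyl reductase, had 0 counts in all 3 PA-1 libraries and 183 ± 8.73 CPM (SD, n = 3) in SK-OV-3, at least 2302-fold higher against a floor of 3 counts per library. CAT, the catalase that breaks down hydrogen peroxide, had at most 1 count in a PA-1 library and 52.7 ± 2.70 CPM in SK-OV-3. GPX1, a glutathione peroxidase, was at 0.372 ± 0.153 CPM in PA-1 and 123 ± 10.3 CPM in SK-OV-3, while its secreted relative GPX3 was the reverse, at 50.8 ± 3.41 CPM in PA-1 and 0.447 ± 0.187 CPM in SK-OV-3. ABCC3 (0.356 ± 0.238 against 70.8 ± 4.13 CPM) and ALDH3A1 (0.606 ± 0.335 against 93.7 ± 3.61 CPM) were also higher in SK-OV-3.

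The genes whose level followed NQO1 most closely over the 12 libraries, by Pearson's r of log2(CPM + 0.5) among 14092 genes, were CLIC3 (0.9995), ITGB6 (0.9993) and SYK (0.999). Their mean in PA-1 was 0 to 0.0081 CPM, and in SK-OV-3 it was 16.9, 29.6 and 8.14 CPM with DMSO and 8.89, 14.3 and 4.18 CPM with BAY-850. The libraries fall into 2 lines, and the difference between the lines sets most of these values.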
